A study of Mus musculus with 7 samples.

Results

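The interferon genes described here are 58 mouse genes, represented by 79 probe sets, out of 12393 genes measured in the series. They were chosen by name alone: every probe set with exactly 1 gene symbol that begins with Ifi, Oas, Gbp, Irf or Stat, together with a short list of single names such as Mx1, Rsad2, Usp18, Bst2 and Eif2ak2. For genes with several probe sets, the one with the highest signal averaged over the 7 arrays was used. Isg15, Ddx58, Xaf1 and any gene of these families without such a probe set were not analysed here. The study compared 3 arrays of Ocn+ cells with 4 arrays of Osx+ cells, all bone marrow stromal cells sorted by flow cytometry from OsxCre-mCherry;OcnCre-Topaz double transgenic mice. Osx+ cells were sorted by the red mCherry of the OsxCre-mCherry transgene, named for osterix, a transcription factor that osteoblasts need to form. Ocn+ cells were sorted by the green Topaz of the OcnCre-Topaz transgene, named for osteocalcin, a matrix protein of mature osteoblasts. Cells carrying both colours were not analysed here. All mice were 4 to 6 weeks old and had received tamoxifen 6 days before the sort, in both groups. Nothing in the labels says whether the arrays of a group came from separate animals, so a p-value here speaks only of the spread among these arrays, part of which may be technical.

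Interferons are secreted proteins that warn cells of infection. Type I interferons and interferon gamma bind separate receptors, whose Janus kinases phosphorylate STAT proteins. STAT proteins then enter the nucleus, where complexes with IRF9 bind the interferon-stimulated response element and STAT pairs bind the gamma-activated site. The genes so induced include sensors of viral nucleic acid, enzymes and binding proteins that block viral RNA, membrane proteins that hinder virus entry or release, and large GTPases that attack the compartments of intracellular microbes. Several members also have roles in bone. IRF8 restrains osteoclast formation, and STAT5 relays cytokine and growth hormone signals.

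The promoters of the interferon genes carried the response element letters far more often than promoters at large, which is why a few are shown. RefSeq promoter sequences of build GRCm38.p6, 300 bases each from 250 before to 50 after the start, were matched by symbol for 46 of the 58 genes. The core of the interferon-stimulated response element, searched as GAAA, any 2 bases and GAAA, was found on either strand in 20 of these 46 genes (43.5%), against 1079 of 27025 genes with a promoter in the table (3.99%). TTCNNNGAA, the core of the gamma-activated site, was found in 15 of 46 genes (32.6%), against 9.55% of all genes. Counted by promoter, the shares were 34.5% against 3.44% and 25.9% against 8.30%. In 2 member promoters matches of both motifs began within 10 bases of each other. The following stretches lie wholly upstream of the start and are written 5′ to 3′ on the gene's strand, with the motif letters in capitals. They come from 6 genes described with their values in every array.
Gbp2, chr3:142620584-142620633, plus strand: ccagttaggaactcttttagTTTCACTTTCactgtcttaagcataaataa
Ifit3, chr19:34583353-34583436, plus strand: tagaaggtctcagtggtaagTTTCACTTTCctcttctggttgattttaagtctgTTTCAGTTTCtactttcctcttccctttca
Igtp, chr11:58199491-58199551, plus strand: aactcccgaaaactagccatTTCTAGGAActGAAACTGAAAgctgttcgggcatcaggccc
Oas1a, chr5:120907526-120907565, minus strand: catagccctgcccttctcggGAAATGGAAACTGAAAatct
Stat2, chr10:128270256-128270305, plus strand: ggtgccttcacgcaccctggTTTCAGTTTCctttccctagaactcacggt
Irf1, chr11:53769904-53769952, plus strand: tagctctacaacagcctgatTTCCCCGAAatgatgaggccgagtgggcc
Ifit3 holds 2 copies of the response element core, and those of Oas1a overlap each other. Igtp holds both motifs, with 2 bases between them. In Irf1 the capitals mark the gamma-activated site. A match is a description of letters and does not show that a factor was bound. Members with the response element core had a median Ocn+ minus Osx+ difference of 0.03 log2 units, and 11 of 20 were above 0. The 26 members with a promoter but without that core had a median difference of 0.21, and 18 of them were above 0. Their signal spanned a median of 1.97 log2 units over the 7 arrays with the core and 1.51 without it.

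Facts that hold for the whole series bear on every value below. Array medians lay between 8.25 and 8.35 on the log2 scale, and no detection calls were used. The Xist RNA, made from the inactive X chromosome, was low in Ocn+ replicate 1, Osx+ replicate 1 and Osx+ replicate 3 (4.87 to 5.79) and high in the other 4 arrays (12.33 to 12.96). The weights that limma estimated for the same 3 arrays, from 0.236 to 0.457, were the lowest of the 7. Osteoblast lineage markers, 9 of 15 measured, had list means from 12.86 to 13.77 in all arrays. Macrophage markers, 15 of 16 measured, stood at 9.15 to 10.21 in Ocn+ and 10.34 to 11.39 in Osx+ arrays. Endothelial markers, 20 of 20 measured, had list means of 9.32 to 9.67 in Ocn+ and 6.20 to 8.98 in Osx+ arrays, and neutrophil markers, 14 of 15 measured, of 10.44 ± 0.09 (SD, n = 3) and 8.63 ± 1.14 (SD, n = 4). Osteoclast markers, 10 of 12 measured, had list means of 10.24 ± 0.20 (SD, n = 3) and 8.97 ± 0.76 (SD, n = 4), with all 10 differences above 0. Of these, 5 had an unadjusted p under 0.05 (50%, against 5.31% of all genes). So did 13 endothelial (65%) and 8 neutrophil markers (57.1%), all with Ocn+ higher, and 6 macrophage markers (40%), all with Ocn+ lower. Mmp9 is in both the osteoclast and the neutrophil list. The part of these other cell types in the values below was not tested, and a bulk array cannot tell fewer cells of a type from less RNA per cell.

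**Figure D1:**
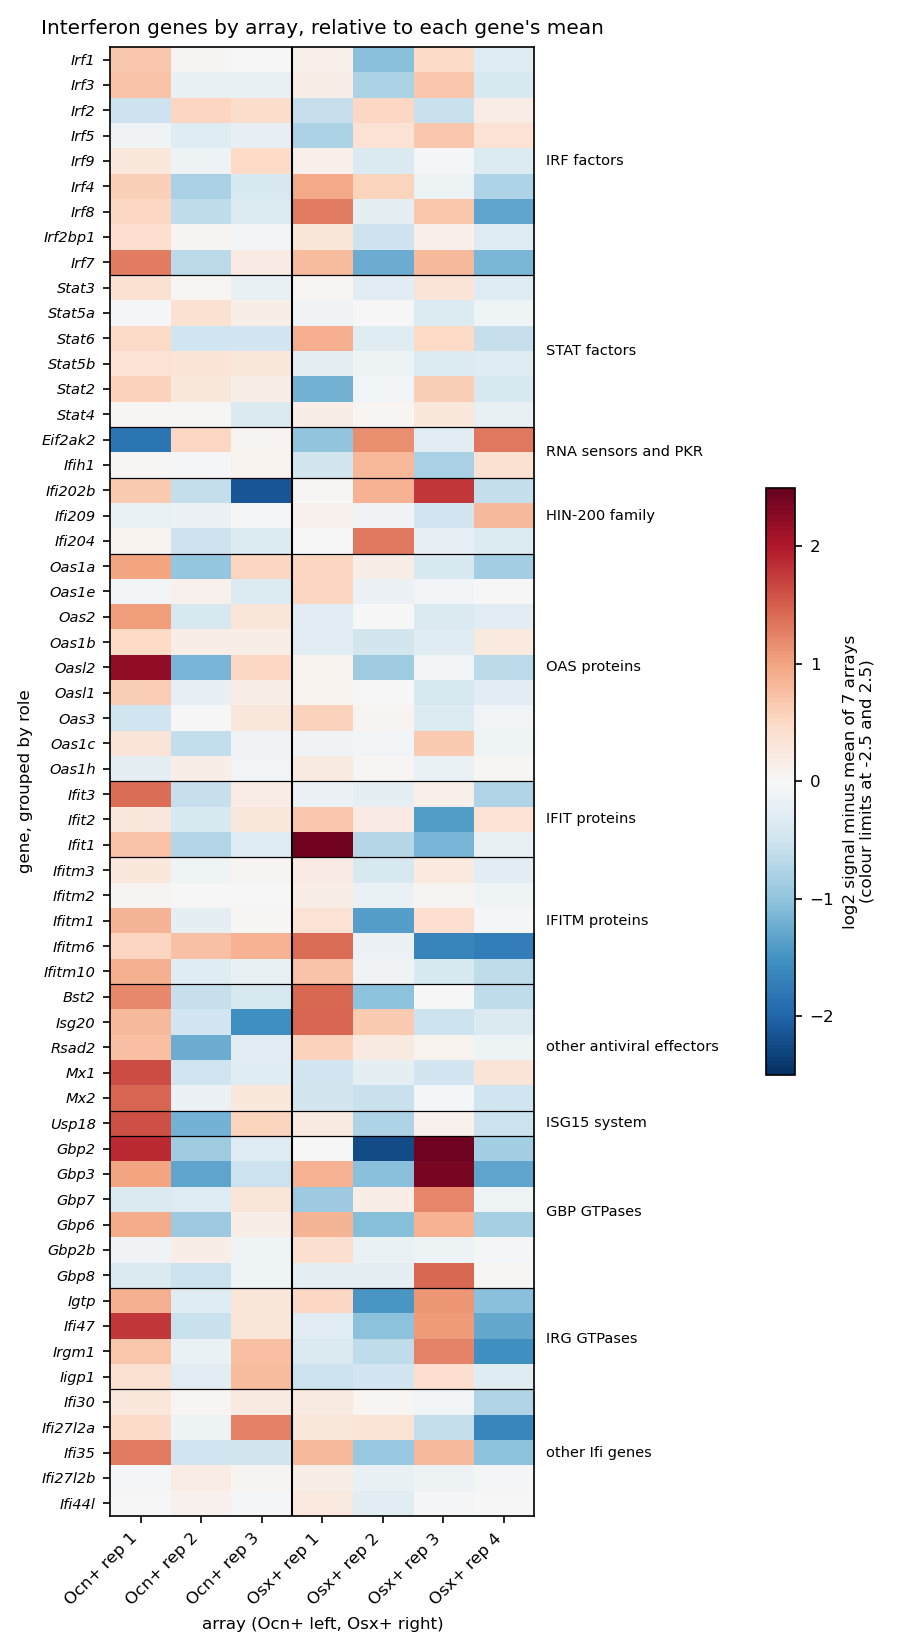
Log2 signal of the 58 interferon genes (rows, grouped by role) in the 7 arrays (columns, Ocn+ left of the line, Osx+ right), as the difference from each gene's mean over the arrays. Ocn+ replicate 1 and Osx+ replicates 1 and 3 hold the brightest value of 48 of the 58 genes (82.8%, against 61.9% of all genes).

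No interferon gene passed the test between osteocalcin-marked and osterix-marked cells after adjustment. By limma, 0 of 58 had an adjusted p under 0.05, as was so for 0% of all genes, and the smallest among them was 0.689. At an unadjusted p under 0.05 stood 2 genes, Stat5b and Mx2, both with more signal in Ocn+ cells. These are 3.45% of the members, against 5.31% of all genes in either direction (3.48% with Ocn+ higher, 1.83% lower). For 1 member, Stat5b (1.72%), every array of one group lay beyond every array of the other, against 6.90% of all genes (4.37% with Ocn+ higher, 2.53% lower). A difference above 0 was found for 38 of 58 members (65.5%), against 52.7% of all genes. The median member difference was 0.17 log2 units, against 0.02 for all genes. Single differences ran from -1.22 for Ifi202b to 1.24 for Ifitm6.

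That count and that median depended on single arrays. At an unadjusted p under 0.05 stood 7 members without Ocn+ replicate 2 (12.1%, against 3.17% of all genes) and 5 without Osx+ replicate 3 (8.62%, against 7.10%). Leaving out Ocn+ replicate 3 left 1 such member (1.72%, against 3.18% of all genes), as did leaving out Osx+ replicate 2 (1.72%, against 3.95%). It was Stat5b in both cases. Leaving out Ocn+ replicate 1 put the median difference at -0.01, and leaving out Osx+ replicate 2 or 4 put it at 0.04 or 0.09. It was higher when Osx+ replicate 1 (0.32) or Ocn+ replicate 2 (0.29) was left out. A missed threshold does not show that the groups are alike. The 95% confidence interval of the difference lay wholly between -1 and 1 log2 unit for 20 of the 58 genes and reached past those limits for 38.

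**Figure D2:**
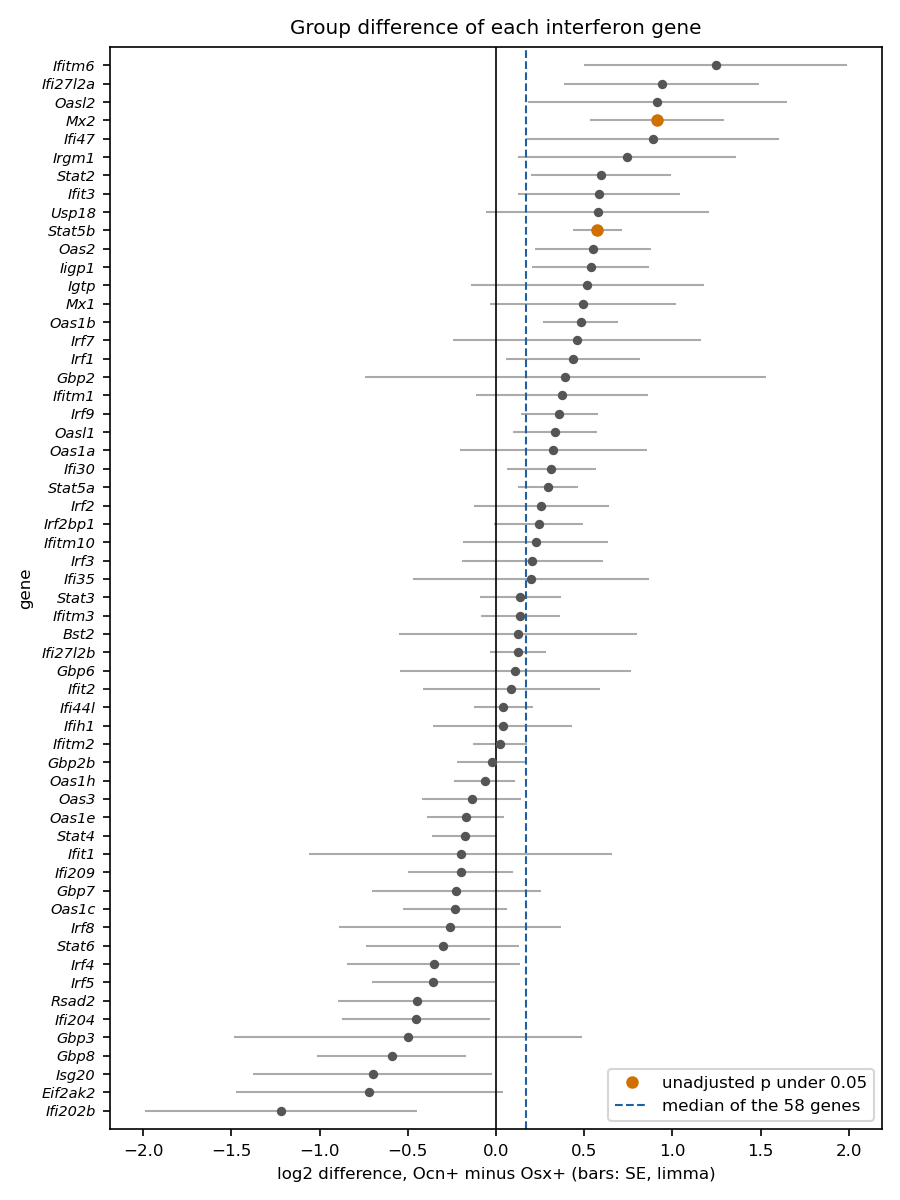
Ocn+ minus Osx+ difference in log2 signal for each of the 58 genes, ordered by size, with the standard error from limma as bars. The dashed line marks the median of 0.17, and the orange points, Stat5b and Mx2, are the 2 genes with an unadjusted p under 0.05.

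The STAT factors, which carry signals from cytokine and interferon receptors to the nucleus, held the one member whose groups were apart. Stat5b, a mediator of growth hormone and cytokine signals, gave 10.39, 10.36 and 10.31 in the Ocn+ arrays and 9.80, 9.91, 9.69 and 9.72 in the Osx+ arrays. Every Ocn+ array lay above every Osx+ array, and the arrays of each group lay close together. The means were 10.35 ± 0.04 (SD, n = 3) and 9.78 ± 0.10 (SD, n = 4), a difference of 0.57 (SE 0.14, 1.49-fold). Its limma adjusted p was 0.689, and the 95% confidence interval ran from 0.24 to 0.90. Leaving out any 1 array gave a difference between 0.54 and 0.62. The other, dimmer Stat5b probe set gave 6.57, 5.60 and 5.94 against 5.94, 5.69, 5.64 and 6.04, with overlap and a difference of 0.21. Stat5a is a close relative of Stat5b, and whether their probe sets cross-hybridize was not tested. Stat5a gave 10.98, 11.39 and 11.16 in Ocn+ against 10.93, 11.02, 10.67 and 10.90 in Osx+ cells, and the groups overlapped (difference 0.30, SE 0.17).

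Of the 6 STAT genes 4 had a difference above 0, and the median was 0.22. Stat2, a factor of the type I response, gave 8.60, 8.30 and 8.17 in Ocn+ cells and 6.84, 7.94, 8.63 and 7.64 in Osx+ cells. Osx+ replicate 3 stood above all Ocn+ arrays, and the other Osx+ arrays stood below them (difference 0.60, SE 0.40, and 0.29 without Osx+ replicate 1). Stat3, a factor of interleukin 6 family signalling, gave 11.51, 11.17 and 10.95 against 11.18, 10.84, 11.46 and 10.81, with full overlap (difference 0.14, SE 0.23). Stat6, the factor of interleukin 4 signalling, differed by -0.30 (SE 0.43), and Stat4, a factor of interleukin 12 signalling, by -0.18 (SE 0.18) at a dim signal of 4.24. In the RefSeq annotation Stat5b, Stat5a and Stat3 are direct neighbours, and their differences were 0.57, 0.30 and 0.14.

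Interferon regulatory factors turn the sensing of infection into transcription, and none of them had an unadjusted p under 0.05. Among the 9 genes of the name, 6 had a difference above 0 and the median was 0.24. Irf1, an early target of interferon gamma, gave 13.73, 13.14 and 13.07 in Ocn+ cells and 13.19, 12.01, 13.54 and 12.76 in Osx+ cells. Its signal was high in every array, and the groups overlapped (difference 0.44, SE 0.38, limma adjusted p = 0.999). Leaving out Osx+ replicate 2 or Ocn+ replicate 1 gave Irf1 a difference of 0.15 or 0.23, and leaving out Osx+ replicate 3 gave 0.66. Irf7, the amplifier of type I interferon production, had the largest difference of the group at 0.46 (SE 0.70). Its values were 9.02, 7.08 and 7.95 in Ocn+ and 8.54, 6.51, 8.56 and 6.61 in Osx+ cells. Both groups held bright and dim arrays, with a span of 2.51 log2 units over all 7, and the difference was -0.04 without Ocn+ replicate 1.

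Irf8, needed for monocyte and dendritic cell development, stood at 8.99 ± 0.60 (SD, n = 3) in Ocn+ and 9.25 ± 1.15 (SD, n = 4) in Osx+ cells, from 7.82 in Osx+ replicate 4 to 10.44 in Osx+ replicate 1. Irf5, a factor of inflammatory macrophages, differed by -0.36 (SE 0.35) and Irf4, a factor of lymphocytes and macrophages, by -0.35 (SE 0.49). Irf8 differed by -0.26 (SE 0.63) over all arrays and by 0.30 within the high Xist class, so its sign was not stable. The median difference was -1.10 for macrophage markers, and it was 1.70 for neutrophil and 0.83 for osteoclast markers. Their part in these values was not tested. Irf9, the DNA-binding partner of STAT2, differed by 0.36 (SE 0.22), Irf2, an antagonist of IRF1, by 0.26 (SE 0.38), and Irf3, the first responder to viral nucleic acid, by 0.20 (SE 0.40). Irf2bp1, a protein that binds IRF2 and is not itself a member of the factor family, differed by 0.24 (SE 0.25).

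**Figure D3:**
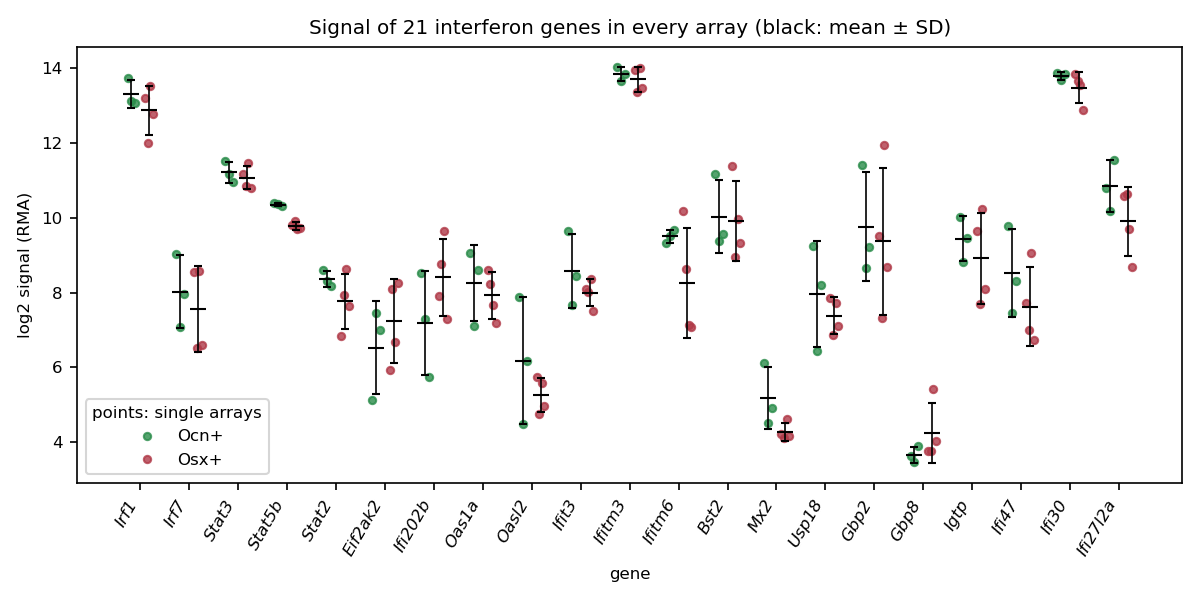
Log2 signal of 21 interferon genes in every array, Ocn+ arrays in green and Osx+ arrays in red, with the mean and SD of each group in black. For Stat5b alone the green points lie wholly above the red ones; for Gbp2, Irf7 and Oasl2 the spread within a group exceeds the distance between group means.

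The HIN-200 family of DNA-binding proteins included the lowest difference of all members. It was that of Ifi202b, which gave 8.53, 7.29 and 5.74 in Ocn+ cells and 7.92, 8.76, 9.65 and 7.29 in Osx+ cells. Ocn+ replicate 3 stood alone at the bottom, and the remaining arrays overlapped (difference -1.22, SE 0.77, limma adjusted p = 0.999). Without Ocn+ replicate 3 the difference was -0.49, and without Ocn+ replicate 1 it was -1.89. Its relatives Ifi204 and Ifi209 differed by -0.45 (SE 0.42) and -0.20 (SE 0.30), both from dim probe sets, at means of 4.42 and 4.55 over the arrays. All 3 HIN-200 genes thus had a difference below 0, with 0 at an unadjusted p under 0.05.

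Eif2ak2, the kinase PKR that stops translation on double-stranded RNA, gave 5.11, 7.45 and 7.01 in Ocn+ and 5.94, 8.09, 6.68 and 8.26 in Osx+ cells. The 3 arrays of low Xist signal were its 3 dimmest, as they were for Irf2 (difference -0.72, SE 0.76). Its second probe set had the opposite sign, at 0.28, so no direction can be given for this gene. Ifih1, the sensor MDA5 of long double-stranded RNA, differed by 0.04 (SE 0.39) at a dim mean of 5.01.

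The oligoadenylate synthetase family includes enzymes that make the messenger that activates RNase L. Of its 9 genes here, 5 differed above 0, with a median of 0.32. Oas1a, an enzyme of the family, gave 9.05, 7.10 and 8.60 in Ocn+ and 8.60, 8.24, 7.66 and 7.20 in Osx+ cells. The lowest array of all was Ocn+ replicate 2 and the highest Ocn+ replicate 1, so the Ocn+ group spanned the Osx+ one (difference 0.32, SE 0.53). Oasl2, another gene of the family, spanned even more, at 7.87, 4.48 and 6.16 against 5.73, 4.76, 5.57 and 4.97. Its difference of 0.91 (SE 0.73) was 0.06 without Ocn+ replicate 1. Oas1b differed by 0.48 (SE 0.21), with Osx+ replicate 4 at 6.30 inside the Ocn+ range of 6.22 to 6.56. Oas2 differed by 0.55 (SE 0.33) and Oasl1 by 0.33 (SE 0.24). Oas1c, Oas1e, Oas1h and Oas3 differed by -0.23 to -0.06. The Oas1 genes are near-identical copies in part, and how far their probe sets share signal was not tested.

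Genes with direct antiviral action varied mostly within groups. Mx2, a dynamin-like GTPase, gave 6.11, 4.52 and 4.92 in Ocn+ and 4.21, 4.10, 4.62 and 4.16 in Osx+ cells. Osx+ replicate 3 stood above Ocn+ replicate 2, so the groups overlapped. The means were 5.18 ± 0.83 (SD, n = 3) and 4.27 ± 0.24 (SD, n = 4), a difference of 0.91 (SE 0.38) with a limma adjusted p of 0.935. Without Ocn+ replicate 1 the difference was 0.45, and the probe set is dim, at the 11.7 percentile of all genes by mean signal. Mx1, its relative, stood at 8.06 in Ocn+ replicate 1 and between 5.92 and 6.75 in the other arrays. Rsad2, the enzyme viperin, differed by -0.45 (SE 0.45) and Isg20, an exonuclease of RNA, by -0.70 (SE 0.68). Bst2, the tether that holds budding virus to the cell, gave 11.16, 9.38 and 9.56 against 11.39, 8.95, 9.96 and 9.33, with means 0.12 apart (SE 0.67) and no stable sign.

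Usp18, which removes ISG15 from proteins and damps the type I receptor, gave 9.24, 6.45 and 8.19 in Ocn+ and 7.86, 6.86, 7.73 and 7.09 in Osx+ cells. Both the highest and the lowest value lay in the Ocn+ group (difference 0.58, SE 0.63, and -0.06 without Ocn+ replicate 1). Of the IFIT proteins, which bind viral RNA, Ifit3 gave 9.64, 7.66 and 8.44 in Ocn+ and 8.10, 8.02, 8.37 and 7.49 in Osx+ cells. Ocn+ replicate 1 stood apart by more than 1 log2 unit, and the others mixed (difference 0.58, SE 0.46, and 0.056 without Ocn+ replicate 1). Ifit1 was brightest in Osx+ replicate 1, at 7.92, and lay between 4.33 and 6.21 elsewhere. Ifit2 lay between 4.80 and 6.89, lowest in Osx+ replicate 3, and Ifit1 and Ifit2 differed by -0.20 (SE 0.86) and 0.09 (SE 0.50).

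The IFITM membrane proteins, which hinder the fusion of viruses with the cell, differed widely in how steady they were over the arrays. Ifitm3 gave 14.03, 13.67 and 13.84 in Ocn+ and 13.96, 13.37, 14.02 and 13.48 in Osx+ cells. Its difference was 0.14 (SE 0.22), and the groups overlapped. Ifitm2 spanned 0.33 log2 units over all 7 arrays, the smallest span of the 58 members, and differed by 0.02 (95% confidence interval -0.34 to 0.38). Ifitm6, a relative expressed in myeloid cells, gave 9.33, 9.52 and 9.66 in Ocn+ and 10.19, 8.64, 7.14 and 7.07 in Osx+ cells. The Ocn+ arrays were alike, while Osx+ replicate 1 stood above them and Osx+ replicates 3 and 4 more than 2 log2 units below. The difference of 1.24 (SE 0.74) was the highest of all members and had a limma adjusted p of 0.999; it was 1.89 without Osx+ replicate 1. The neutrophil marker list also had its lowest means in Osx+ replicates 3 and 4, at 8.13 and 7.35, and its part in the Ifitm6 values was not tested. Ifitm1 differed by 0.37 (SE 0.49) and Ifitm10 by 0.22 (SE 0.41), so that all 5 members of the group had a difference above 0 and 0 of them an unadjusted p under 0.05.

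Interferon gamma drives 2 families of large GTPases, the guanylate-binding proteins and the immunity-related GTPases. The first held the single member with the widest spread between arrays. Gbp2 gave 11.40, 8.65 and 9.22 in Ocn+ cells and 9.52, 7.31, 11.96 and 8.68 in Osx+ cells. Osx+ replicate 3 was the highest and Osx+ replicate 2 the lowest of all 7, a span of 4.65 log2 units, the largest of the 58 members. The group means were 9.76 ± 1.45 (SD, n = 3) and 9.37 ± 1.96 (SD, n = 4), a difference of 0.39 (SE 1.14). Its sign turned without Ocn+ replicate 1 (-0.43) and without Osx+ replicate 2 (-0.29). The second Gbp2 probe set had the same order at both ends, from 6.06 in Osx+ replicate 2 to 11.10 in Osx+ replicate 3. Gbp3 spanned 3.70 log2 units, from 6.17 in Osx+ replicate 4 to 9.88 in Osx+ replicate 3. Gbp8 gave 3.63, 3.46 and 3.88 against 3.75, 3.77, 5.43 and 4.04, all of them dim and Osx+ replicate 3 the highest (difference -0.59, SE 0.42, and -0.20 without that array). Gbp6, Gbp7 and Gbp2b differed by 0.11, -0.22 and -0.03.

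All 4 immunity-related GTPases, which attack the vacuoles of intracellular microbes, had a difference above 0, and 0 of them an unadjusted p under 0.05. Igtp gave 10.03, 8.83 and 9.45 in Ocn+ and 9.65, 7.68, 10.24 and 8.10 in Osx+ cells. The lowest 2 arrays were both Osx+, but the highest was Osx+ too (difference 0.52, SE 0.66). Its difference was smaller when Osx+ replicate 2 (0.11), Ocn+ replicate 1 (0.22) or Osx+ replicate 4 (0.25) was left out, and was 0.96 when Osx+ replicate 3 was. Ifi47 had the largest difference of the family, at 0.89 (SE 0.72), with 9.77, 7.45 and 8.31 against 7.72, 6.99, 9.06 and 6.72. Again Osx+ replicate 3 lay among the Ocn+ arrays, and the difference was 1.37 without it, 1.42 without Ocn+ replicate 2 and 0.26 without Ocn+ replicate 1. Irgm1 differed by 0.74 (SE 0.62) and Iigp1 by 0.54 (SE 0.33). Of the family medians given here, theirs was the highest, at 0.64. Endothelial markers, with a median difference of 2.30, were likewise brightest among Osx+ arrays in replicate 3, at a list mean of 8.98. Their part in these values was not tested.

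Among the remaining Ifi genes, all 5 had a difference above 0 and 0 an unadjusted p under 0.05. Ifi30, a thiol reductase of antigen processing in lysosomes, gave 13.89, 13.68 and 13.84 in Ocn+ and 13.85, 13.67, 13.55 and 12.88 in Osx+ cells. Osx+ replicate 4 stood lowest and the rest lay within a narrow band (difference 0.31, SE 0.25, and 0.11 without Osx+ replicate 4). Ifi27l2a, a small protein strongly induced by type I interferon, gave 10.79, 10.17 and 11.56 in Ocn+ and 10.59, 10.64, 9.70 and 8.68 in Osx+ cells. The 2 lowest arrays were Osx+ replicates 3 and 4, and the groups overlapped (difference 0.94, SE 0.55). It was 0.53 without Osx+ replicate 4 and 0.58 without Ocn+ replicate 3. Ifi35 differed by 0.20 (SE 0.67), Ifi27l2b by 0.12 (SE 0.16) and Ifi44l by 0.04 (SE 0.17).

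Around the family lie the genes that start and carry the signal. Of 30 listed interferons, receptors, Janus kinases and their inhibitors 24 were measured, and 1 (4.17%, against 5.31% of all genes) had an unadjusted p under 0.05. This was Ifnar2, a chain of the type I receptor, with 11.56, 11.33 and 11.46 in Ocn+ and 11.18, 11.03, 11.10 and 11.13 in Osx+ cells. The groups were apart, with a difference of 0.34 (SE 0.14) and a limma adjusted p of 0.938. The difference was 0.19 with the mean of all Ifnar2 probe sets and 0.037 with the one of largest variance. The other chain, Ifnar1, lay between 11.17 and 11.45 in all arrays and differed by -0.06 (SE 0.15). The interferon genes themselves were dim, Ifnb1 between 3.90 and 4.32 and Ifng between 3.59 and 5.29. Ifna11 was also apart, from 3.61 to 3.78 in Ocn+ and from 3.46 to 3.58 in Osx+ cells, at a signal so low that no level can be read from it. The 2 genes with groups apart were 8.33% of those measured, against 6.90% of all genes. Of 24 listed genes of nucleic acid sensing, 19 were measured and 0 had an unadjusted p under 0.05. Tlr7, a receptor of single-stranded RNA, had their largest difference, -1.61 (SE 0.90), and stood brightest in Osx+ replicates 1 and 3, at 7.80 and 8.43.

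Of 60 further interferon-stimulated genes listed by name, 48 were measured. An unadjusted p under 0.05 was found for 6 of them (12.5%, against 5.31% of all genes), 5 with more and 1 with less signal in Ocn+ cells, and 0 had an adjusted p under 0.05. Pml, the organizer of nuclear bodies, had a mean of 9.25 in Ocn+ cells, highest in replicate 1 at 9.41, and gave 8.57, 8.52, 8.55 and 8.58 in Osx+ cells. The groups were apart by more than the whole Osx+ range (difference 0.69, SE 0.16, limma adjusted p = 0.689). Daxx, a partner of PML in these bodies, gave 9.54, 9.27 and 9.18 against 8.73, 8.80, 8.84 and 8.87, also apart (difference 0.52, SE 0.15). Plac8, a small protein abundant in myeloid cells, had the largest difference, 2.24 (SE 0.67), from 9.82 to 10.23 in Ocn+ and at 9.03, 8.79, 6.67 and 6.60 in Osx+ cells. Its 2 lowest arrays, Osx+ replicates 3 and 4, were also the lowest for neutrophil markers, whose part in this was not tested. Parp12 and Uba7 were apart as well, with differences of 0.42 (SE 0.17) and 0.82 (SE 0.36), while Mov10 differed by 0.88 (SE 0.32) with overlap. Pnpt1, an RNA-processing enzyme of mitochondria, was the one with less signal, at -0.75 (SE 0.21), and apart; with the mean of all its probe sets the difference was -0.39. Groups were apart for 6 of the 48 genes (12.5%, against 6.90% of all genes), and the median of the 48 differences was 0.10.

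The interferon genes varied between arrays of the same group. Over the 7 arrays 44 of 58 members (75.9%) spanned more than 1 log2 unit, against 52.4% of all genes, and 24 (41.4%) more than 2, against 16.1%. The median span was 1.77 for the members and 1.05 for all genes. The mean over the 58 genes was 8.41 in Ocn+ replicate 1, 7.60 in Ocn+ replicate 2 and 7.89 in Ocn+ replicate 3. It was 8.10, 7.63, 8.05 and 7.50 in Osx+ replicates 1 to 4. The group means of 7.97 ± 0.41 (SD, n = 3) and 7.82 ± 0.30 (SD, n = 4) lay closer together than the highest and lowest array of either group. The brightest array was Ocn+ replicate 1 for 23 members (39.7%, against 20.3% of all genes), Osx+ replicate 1 for 14 (24.1%, against 26.0%) and Osx+ replicate 3 for 11 (19.0%, against 15.6%). These are the arrays of low Xist signal, and together they held the brightest value of 48 members (82.8%, against 61.9% of all genes). Marker lists of plasmacytoid dendritic cells, 8 of 10 measured, and erythroid cells, 8 of 12 measured, also had their 3 highest means in these arrays. The first lay from 7.71 to 7.77 there and from 7.11 to 7.39 elsewhere, the second from 7.53 to 8.49 and from 6.30 to 7.12. The mean over all genes was also highest in these 3 arrays, at 8.62 to 8.65 against at most 8.58 elsewhere. So was the mean of the 19 measured nucleic acid sensing genes, at 8.085 to 8.20 against at most 7.96. The mean of the 48 further interferon-stimulated genes was highest there too, at 8.78 to 9.15 against at most 8.76. The plasmacytoid list includes Bst2, itself one of the 58 members. All 3 arrays stood above the others for 2 of its 8 markers and for 3 of the 8 erythroid markers. This held for 21.4% of all genes. They stood below the others for 1 marker of each list. The part of these cell types in the interferon values was not tested.

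By role group, the brightest array was Ocn+ replicate 1 for 5 of the 9 OAS genes, 4 of the 9 IRF genes, 3 of the 5 IFITM genes and 3 of the 5 other antiviral effectors. Osx+ replicate 3 was the brightest for 4 of the 6 GBP genes, Gbp2, Gbp3, Gbp7 and Gbp8, and for 2 of the 4 immunity-related GTPases, Igtp and Irgm1. It was also the brightest for Stat2, Stat4, Oas1c, Irf5 and Ifi202b, while Gbp6, Ifi47 and Irf1 were brightest in Ocn+ replicate 1. Ifng stood at 5.29 in Osx+ replicate 3, 4.78 in Ocn+ replicate 3 and between 3.59 and 3.96 in the others. Interferon gamma targets outside the 58 genes were not all brightest in the same array. Cxcl9 (10.61), Cxcl11 (6.67), Irgm2 (10.65) and Tap1 (10.89) were brightest in Osx+ replicate 3. Tap1 stood only just above its value in Ocn+ replicate 1 (10.87). Cxcl10 (13.04), Psmb10 (11.62) and Tap2 (9.28) were brightest in Ocn+ replicate 1. Psmb8 (10.25) and Psmb9 (10.01) were brightest in Osx+ replicate 1, both only just above Ocn+ replicate 1. The dim Ciita was brightest in Osx+ replicate 4 (5.43). These groupings were noticed in the data and were not tested.

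The Xist classes cut across the cell groups. All 3 low arrays stood above all 4 high arrays for 16 members (27.6%, against 21.4% of all genes), among them Gbp2, Gbp3, Igtp, Irf1, Irf3, Irf7, Irf8 and Bst2. They stood below them for Irf2 and Eif2ak2. Low arrays had the higher mean for 44 members (75.9%), against 62.0% of all genes, with a median difference of 0.43 log2 units against 0.14. Each class holds arrays of both cell groups. Among the high arrays, 2 Ocn+ against 2 Osx+, the median member difference was 0.24, and 12 members had an unadjusted p under 0.05 (20.7%, against 19.7% of all genes). Among the low arrays it was 0.21, with 1 Ocn+ array against 2 Osx+ arrays, too few to read a test from. With the Xist class in the model 8 members did (13.8%, against 16.0%). By limma 0 members had an adjusted p under 0.05 in either fit. Stat5b differed by 0.52 within the high and 0.64 within the low class.

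**Figure D4:**
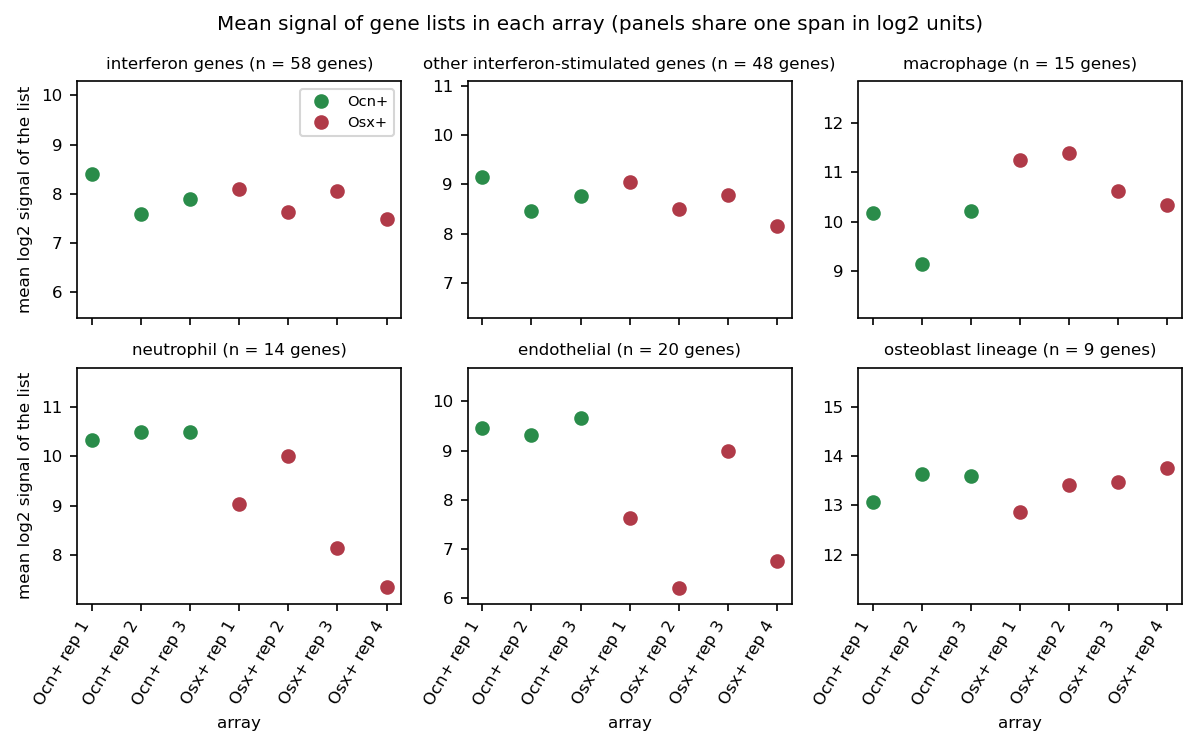
Mean log2 signal of 6 gene lists in each array, Ocn+ arrays in green and Osx+ arrays in red, every panel spanning the same number of log2 units. The 58 interferon genes lie between 7.50 and 8.41 with both colours mixed, while the endothelial list runs from 9.32 to 9.67 in the Ocn+ arrays and from 6.20 to 8.98 in the Osx+ arrays.

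The measurement itself was checked within the family. Of the 58 genes 16 had more than 1 probe set, and 18 of their 21 further probe sets had a difference of the same sign as the one used. The exceptions belonged to Eif2ak2, Ifi44l and Stat3. By mean signal 16 members lay under the 25th percentile of all genes, which is 6.03 on the log2 scale, Mx2 and 5 OAS genes among them. Members that are direct neighbours in the RefSeq annotation formed 6 runs of 19 genes. In the run of Gbp7, Gbp3, Gbp2b and Gbp2 the differences were -0.22, -0.50, -0.03 and 0.39. In the run of Ifitm2, Ifitm1, Ifitm3 and Ifitm6 they were 0.02, 0.37, 0.14 and 1.24, and in that of Oas2, Oas3, Oas1e and Oas1c they were 0.55, -0.14, -0.17 and -0.23.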

How the data were processed

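RNA of 7 sorted samples, 3 Ocn+ and 4 Osx+, was amplified with NuGEN Ovation V2 and hybridised to 1-colour arrays, per the labels' protocols. The deposited values are on a log2 scale and were made with RMA, per the submitters' processing notes; no version or settings were found in the labels or file headers. Of 22690 probe sets, 20380 had 1 gene symbol, 691 several and 1555 none, and 64 were controls. Genes were represented by the probe set of highest mean. Ocn+ was compared with Osx+ in limma 3.58.1 (R 4.3.3), without a block, with Benjamini-Hochberg adjustment over 12393 genes and a threshold of 0.05. The script was tested on simulated data whose planted changes were larger than any member difference here. That test does not show what can be detected at the sizes reported. Members with values in every array were those with an unadjusted p under 0.05 or groups apart, and in each role group the one of highest mean signal and the one of largest difference; others, those added from other lists, and the array patterns, were chosen after their values were seen. The members and lists were chosen with earlier results of these data known. Array number limits the precision. Alternatives covered left-out arrays, a replicate block, dim genes, probe set choice, normalization, the prior, array weights and the Xist class.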

Additional observations from a re-analysis of the deposited data

Results flagged for a closer look

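Among the 4 Osx+ arrays, 4 values stood apart from the others of their group by Dixon's test, out of 58 genes and 26 list means examined. Chance gives about 1 such value in 20 groups. Gbp8, a guanylate-binding protein, stood at 5.43 in Osx+ replicate 3, with the nearest Osx+ array at 4.04 (gap over range 0.832). Oas1c, an oligoadenylate synthetase, stood at 5.20 in the same array, with the nearest at 4.48 (0.939). The mean of the 5 other antiviral effectors, Bst2, Isg20, Mx1, Mx2 and Rsad2, was 8.07 in Osx+ replicate 1, with the nearest at 7.37 (0.906). The mean of the 24 ligands, receptors and Janus kinase genes was 8.22 in Osx+ replicate 3, with the nearest at 7.96 (0.834).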

How the results depend on the processing

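The count of members with an unadjusted p under 0.05, 2 as reported, was 4 with a replicate block (6.90%, against 6.68% of all genes). It was 1 to 7 with single arrays left out (1.72% to 12.1%, against 3.17% to 7.88% of all genes). Without dim genes it was 1 of 42 members (2.38%, against 5.51%). It was 1 with the mean of all probe sets (1.72%, against 5.33%) and 1 with the probe set of largest variance (1.72%, against 4.83%). With array weights it was 7 (12.1%, against 17.8%), and with the Xist class as a term it was 8 (13.8%, against 16.0%). Within the Xist classes, alternatives chosen after seeing the data, it was 12 in the high one (20.7%, against 19.7%). The low one has 1 Ocn+ array, too few to read a count from. Its median member difference was 0.21, against 0.01 for all genes. The adjusted count over all genes, 0 as reported, was 0 to 3 with single arrays left out, 97 with array weights and 19 within the high Xist class; 0 members were called in any setting. The 30 genes followed over 18 settings were picked from these same data by unadjusted p, separation of groups, brightness or size of difference. A steady sign among them is therefore partly built in and is no support for a direction. Of the 30, 24 never changed sign and 6 did. The 24 include Eif2ak2, whose second probe set had the opposite sign. Bst2 gave -0.067 with the replicate block and -0.44 to 0.62 with single arrays left out. Under the latter Gbp2 gave -0.43 to 1.26, Irf7 -0.042 to 0.93, Usp18 -0.064 to 1.33, Oas1a -0.076 to 0.90 and Stat3 -0.010 to 0.27. With array weights Usp18 gave -0.13 and Oas1a -0.060, and Stat3 gave -0.10 with the probe set of largest variance. The cause was not tested. Deviations of samples with the same replicate number correlated at 0.63, 0.45 and -0.30, so the numbers were not taken as pairs. Osx+ replicate 4 has no Ocn+ partner, so the differences with the block are those without it. Few arrays and dim probe sets limit what can be seen.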
